A study of Mus musculus with 12 samples.

Results

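Messenger RNA of 8 amino acid transporters was compared between 2 populations of spleen CD4 T cells. The 8 genes, Slc7a5, Slc3a2, Slc7a6, Slc43a1, Slc1a5, Slc38a1, Slc38a2 and Slc7a1, were given by name, and their rows were those whose gene symbol equals a name. All 8 were present among the 55401 genes of the files, and all 8 were among the 12015 genes that passed the filter on low counts and were tested. The populations were sorted from C57BL/6 mice 21 days after infection with Leishmania donovani, a parasite that persists in the spleen. After enrichment of CD4 T cells on magnetic columns, a cell sorter took 2 gates. The first, called TLCP (6 libraries), was LAG-3+ CXCR5+ PD-1lo/int. The other, of T follicular helper cells (Tfh, 6 libraries), was CXCR5+ PD-1hi and is described in the series as mostly germinal center Tfh. Every animal was infected and no gene was deleted in any group, so the comparison is between 2 sorted states of the same infection and has no uninfected or naive reference.

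Amino acid uptake through these carriers feeds protein synthesis and the mTORC1 kinase, which reads intracellular leucine, arginine and glutamine. Slc7a5 encodes LAT1, the light chain that imports leucine and other large neutral amino acids, and Slc3a2 encodes CD98, the heavy chain that brings LAT1 and several other light chains to the cell surface. Naive T cells hold little of either, antigen receptor signaling raises both, and MYC is known to act on Slc7a5 and Slc1a5.

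The sorted gates were visible in the RNA. Lag3 was 189 ± 31.2 CPM (read counts scaled by TMM to 1000000 per library) in TLCP and 40.5 ± 11.1 in Tfh. The PD-1 gene Pdcd1 was 36.6 ± 4.60 and 318 ± 34.8, and Cxcr5 was 277 ± 56.9 and 849 ± 78.2 (mean ± SD, n = 6 each). These genes defined the sort and are given only as a check of the labels. Cd3e, a subunit of the T cell receptor complex, was 503 ± 29.4 CPM in TLCP and 520 ± 19.2 in Tfh (adjusted p = 0.535). Trac, the constant segment of the T cell receptor alpha chain, was lower in TLCP without overlap, at 647 ± 77.5 against 976 ± 62.2 CPM (log2 fold change -0.59, adjusted p = 5.3e-06). Cd4, the co-receptor of helper T cells, was also lower without overlap, at 725 ± 47.1 against 955 ± 47.5 CPM (log2 fold change -0.40, adjusted p = 3.3e-05). On log2(TPM + 1) with limma neither passed, with differences of -0.31 for Trac (adjusted p = 0.115) and -0.11 for Cd4 (adjusted p = 0.559). The libraries held 6939770 to 12688306 reads assigned to genes, so a count of 3 corresponds to 0.236 to 0.432 CPM before TMM scaling, and the lowest count of any of the 8 transporters in any library was 109. Immunoglobulin genes held 0.731% to 4.64% of the reads in TLCP and 0.110% to 0.384% in Tfh.

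Promoter windows from RefSeq (GRCm38.p6), each 250 bases before to 50 bases after a transcript start, were on hand for 5 of the 8 genes, 7 windows in all. They were searched on both strands for 3 short motifs: CACGTG, the E-box that MYC and MAX bind, TGATGNAA, the core of the element that ATF4 and its C/EBP partners bind, and TGACTCA, the AP-1 element. CACGTG stood in 1 window, that of Slc43a1, from 64 to 59 bases before the start, and TGACTCA in 1 of the 2 windows of Slc7a1, from 123 to 117 bases before the start. The Slc43a1 window lies inside the gene's annotated span, which begins upstream of it at 84838850. The other 5 windows, those of Slc3a2, Slc38a2 and Slc7a6 among them, held none of the 3 motifs, which overlapped nowhere. Among all 32851 windows of 300 bases, 7.15% held CACGTG, 3.97% TGATGNAA and 5.20% TGACTCA. The windows of the 3 genes with changed mRNA that have one are printed, 2 higher and 1 lower in TLCP, in the direction of transcription with the motif found in capitals. Their places are chr19:8713848-8714147 on the minus strand (Slc3a2), chr15:96699679-96699978 on the minus strand (Slc38a2) and chr2:84840073-84840372 on the plus strand (Slc43a1).
Slc3a2: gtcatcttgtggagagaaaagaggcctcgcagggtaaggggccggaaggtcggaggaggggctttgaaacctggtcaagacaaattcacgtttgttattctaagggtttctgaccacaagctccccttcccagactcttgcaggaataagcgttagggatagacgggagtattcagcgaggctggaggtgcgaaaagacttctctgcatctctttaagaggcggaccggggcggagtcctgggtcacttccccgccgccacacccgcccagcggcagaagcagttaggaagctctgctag
Slc38a2: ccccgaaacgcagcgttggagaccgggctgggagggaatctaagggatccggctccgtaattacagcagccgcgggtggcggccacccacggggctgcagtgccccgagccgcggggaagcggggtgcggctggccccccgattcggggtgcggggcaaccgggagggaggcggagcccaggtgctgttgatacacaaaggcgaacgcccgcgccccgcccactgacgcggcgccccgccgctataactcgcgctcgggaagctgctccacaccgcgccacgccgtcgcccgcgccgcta
Slc43a1: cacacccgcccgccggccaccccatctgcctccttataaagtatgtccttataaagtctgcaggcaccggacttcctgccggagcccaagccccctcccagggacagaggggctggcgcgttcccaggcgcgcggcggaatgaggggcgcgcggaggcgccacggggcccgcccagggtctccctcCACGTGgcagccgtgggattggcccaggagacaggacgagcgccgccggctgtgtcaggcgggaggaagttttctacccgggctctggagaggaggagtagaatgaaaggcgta

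Of the 8 transporters 4 were higher in TLCP (Slc3a2, Slc7a5, Slc1a5, Slc38a2), 2 were lower (Slc43a1, Slc38a1) and 2 did not pass the test (Slc7a1, Slc7a6), by edgeR's quasi-likelihood test with Benjamini-Hochberg adjustment over all tested genes and a threshold of 0.05. Over all 12015 tested genes 33.2% passed, 16.8% higher and 16.4% lower in TLCP. For 5 of the 8 the 6 TLCP values did not overlap the 6 Tfh values, as was so for 17.2% of all tested genes. The changes were mostly small. The median log2 fold change of the 8 was 0.23, beside -0.0041 over all tested genes. Slc43a1 alone among the 8 passed with a change of at least 2-fold, as did 9.74% of all tested genes, and the median absolute log2 fold change of the genes that passed was 0.57. Because these are bulk libraries, fewer cells carrying a transcript and less transcript per cell cannot be told apart.

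**Figure D1:**
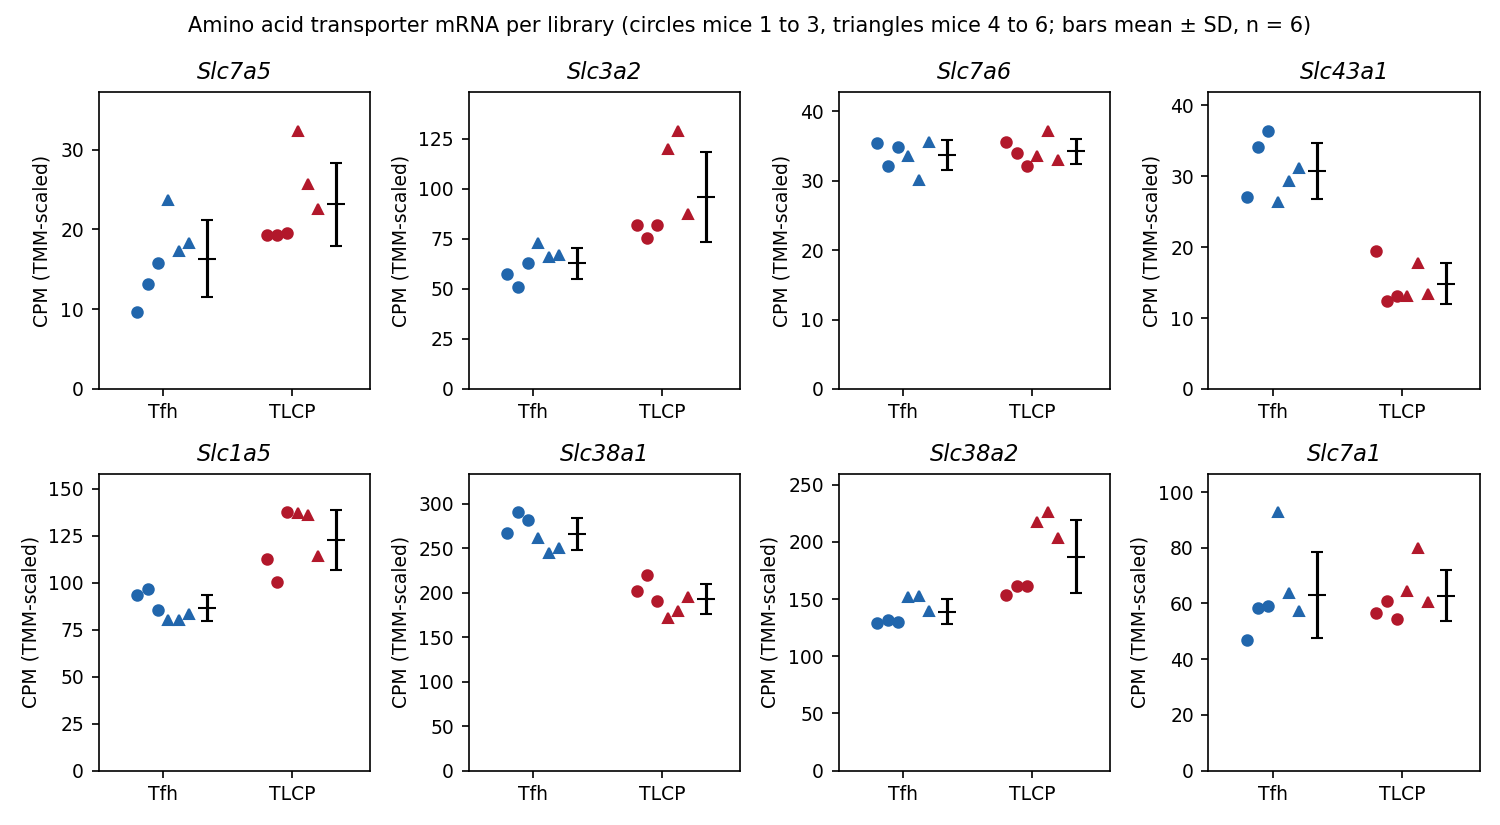
TMM-scaled CPM of each transporter in every library, with Tfh in blue, TLCP in red, circles for mice 1 to 3, triangles for mice 4 to 6, and bars for mean ± SD (n = 6). Slc3a2, Slc1a5 and Slc38a2 are higher in TLCP and Slc43a1 and Slc38a1 lower without overlap, Slc7a5 is higher with overlap, and Slc7a6 and Slc7a1 overlap.

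Slc3a2, the CD98 heavy chain, lies on chromosome 19 from 8706882 to 8723369 (minus strand, GRCm38). In TLCP its lowest, median and highest library values were 75.2, 84.8 and 129 CPM, and in Tfh they were 51.1, 64.3 and 73.1 CPM. Every TLCP library was above every Tfh library. TLCP libraries 4 and 5, at 120 and 129 CPM, stood above the other 4, which held 75.2 to 87.5 CPM. The mean was 95.8 ± 22.6 CPM in TLCP and 62.8 ± 7.70 in Tfh, a 1.53-fold difference (log2 fold change 0.61, SE 0.13, adjusted p = 0.0024), and all 6 same-numbered pairs went the same way, by 0.39 to 0.97 on the log2 scale. The RefSeq window printed for it lies inside the gene's annotated span.

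Slc7a5, the LAT1 light chain (chromosome 8, 121881150 to 121907694, minus strand), had the least secure of the 6 changes. Its library values were 19.3, 19.3, 19.6, 32.4, 25.7 and 22.6 CPM in TLCP 1 to 6 and 9.65, 13.2, 15.9, 23.7, 17.4 and 18.3 CPM in Tfh 1 to 6. The groups overlapped, since Tfh library 4 was above 4 of the 6 TLCP libraries, while within each of the 6 same-numbered pairs TLCP was higher, by 0.30 to 1.0 on the log2 scale. The mean was 23.1 ± 5.19 CPM in TLCP and 16.3 ± 4.79 in Tfh, or 1.42-fold (log2 fold change 0.51, SE 0.18, adjusted p = 0.041). The call was lost when any of 7 of the 12 libraries was left out (TLCP 4, 5 or 6, Tfh 1, 2, 3 or 5), with adjusted p from 0.0593 to 0.111 and log2 fold changes from 0.38 to 0.53. Neither the main test nor the fits with a library left out used the pairing. With the mouse number as a block the log2 fold change was 0.52 and the adjusted p 0.0016. An unnamed gene model, Gm20388, overlaps Slc7a5 on the opposite strand, and the counts used were those of the gene's own strand.

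The proportion of heavy to light chain overlapped between the populations. In deposited TPM, which divides by transcript length and so allows levels of different genes to be compared, Slc3a2 stood at 4.36 ± 0.49 times Slc7a5 in TLCP (3.88 to 5.27) and 4.25 ± 1.03 times in Tfh (3.24 to 6.25). No test was made of this ratio, which counts transcripts and not paired proteins.

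Slc7a6, y+LAT2, is a light chain of CD98 that exchanges cationic for neutral amino acids (chromosome 8, 106168857 to 106198706, plus strand). It ran from 32.2 to 37.2 CPM in TLCP and from 30.1 to 35.6 CPM in Tfh. The groups overlapped, and 3 of the 6 pairs were higher in TLCP. The means were 34.2 ± 1.84 and 33.6 ± 2.16 CPM (log2 fold change 0.02, SE 0.080, adjusted p = 0.85).

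Slc43a1, LAT3, carries leucine and other branched-chain amino acids without a heavy chain and without exchange (chromosome 2, 84838850 to 84863594, plus strand). It was the most changed of the 8. Its lowest, median and highest values were 12.4, 13.3 and 19.4 CPM in TLCP and 26.4, 30.3 and 36.4 CPM in Tfh. All 6 TLCP libraries were below all 6 Tfh libraries. The mean was 14.9 ± 2.95 CPM in TLCP and 30.8 ± 3.94 in Tfh, 2.07-fold lower (log2 fold change -1.05, SE 0.13, adjusted p = 3.1e-06), and the pairs ran from -1.48 to -0.48. In TPM, Slc7a5 was above Slc43a1 in every TLCP library. In Tfh it was below Slc43a1 in every library but number 4, where the values were 12.2 and 8.79 TPM. The ratio was 2.48 ± 0.74 in TLCP (1.53 to 3.79) and 0.836 ± 0.31 in Tfh (0.549 to 1.38), without overlap. It is given as a description with no test.

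Slc1a5, ASCT2, is a sodium-dependent exchanger of glutamine, serine, alanine and other small neutral amino acids (chromosome 7, 16781340 to 16798274, plus strand). Its lowest, median and highest values were 100.2, 125 and 137 CPM in TLCP and 80.2, 84.4 and 96.4 CPM in Tfh. The groups did not overlap, though TLCP library 2, at 100.2 CPM, was close to Tfh library 2, at 96.4 CPM. The mean was 123 ± 16.0 CPM in TLCP and 86.5 ± 6.85 in Tfh, or 1.42-fold (log2 fold change 0.50, SE 0.084, adjusted p = 0.00012). All 6 pairs were higher in TLCP, by 0.06 in mouse 2 and up to 0.77 in mouse 4.

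Slc38a1 and Slc38a2 encode SNAT1 and SNAT2, sodium-coupled importers of glutamine, alanine and other small neutral amino acids, and lie close together on chromosome 15 (96571418 to 96642913 and 96687392 to 96699730, both on the minus strand). They differed in opposite directions. Slc38a1 was 171, 193 and 220 CPM at its lowest, median and highest in TLCP and 244, 264 and 290 CPM in Tfh. No TLCP library reached a Tfh library, and the spread within each group was narrow. The mean was 193 ± 17.2 CPM in TLCP and 266 ± 17.7 in Tfh, 1.38-fold lower (log2 fold change -0.46, SE 0.067, adjusted p = 2.4e-05).

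Slc38a2, which many cells raise when amino acids run short, was 153, 183 and 226 CPM at its lowest, median and highest in TLCP and 129, 136 and 152 CPM in Tfh. The lowest TLCP library, number 1 at 153 CPM, was barely above the highest Tfh library, number 5 at 152 CPM. The mean was 187 ± 32.1 CPM in TLCP and 139 ± 10.7 in Tfh, or 1.35-fold (log2 fold change 0.43, SE 0.095, adjusted p = 0.0017). Within a library Slc38a2 stood at 1.92 ± 0.47 times Slc38a1 in TLCP (1.43 to 2.48) and at 1.03 ± 0.14 times in Tfh (0.889 to 1.22), in TPM. These ranges did not overlap, and the ratio does not depend on how a library is scaled.

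Slc7a1, CAT1, imports arginine and lysine (chromosome 5, 148327410 to 148399904, minus strand). It ran from 54.3 to 79.9 CPM in TLCP and from 47.0 to 92.7 CPM in Tfh, where library 4 was the highest and library 5, at 63.7 CPM, the next. The Tfh range enclosed the TLCP range. The means were 62.8 ± 9.13 and 63.0 ± 15.5 CPM (log2 fold change 0.00, SE 0.14, adjusted p = 0.998), and 4 of 6 pairs were higher in TLCP.

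**Figure D2:**
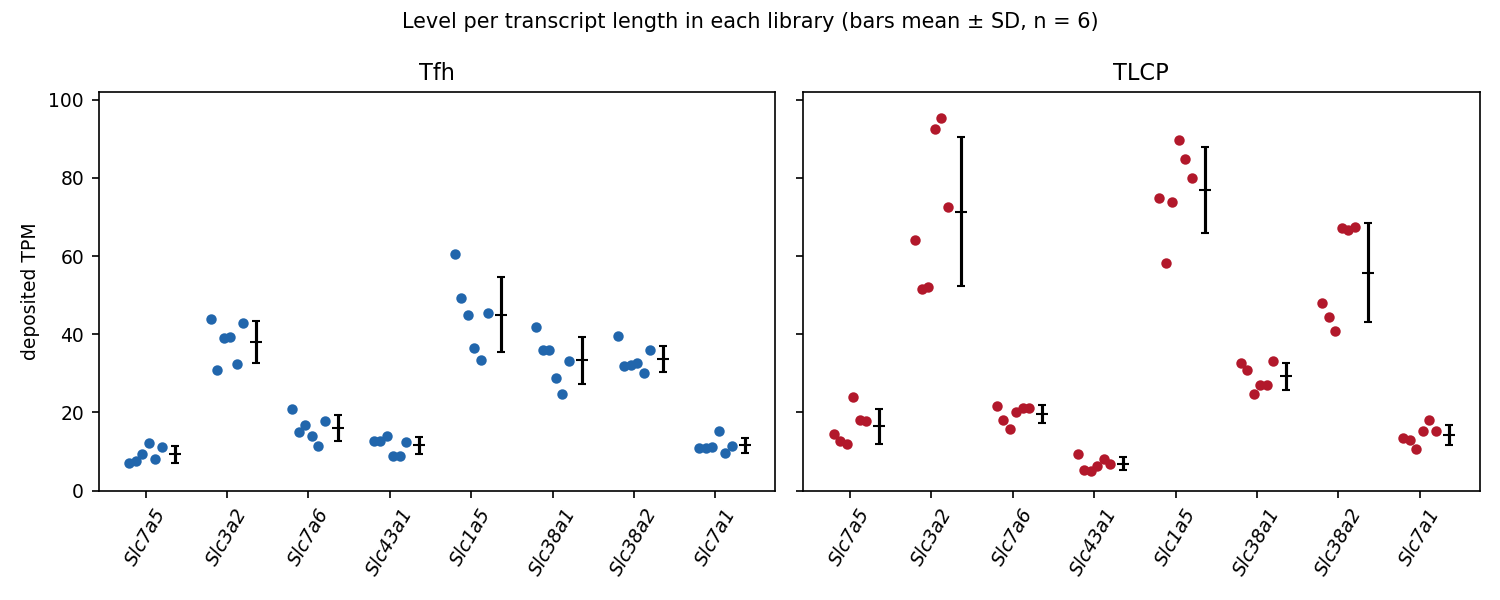
Deposited TPM of the 8 transporters in each library of Tfh (blue) and TLCP (red), with bars for mean ± SD (n = 6). Slc1a5 and Slc3a2 lead in both populations, Slc43a1 is last in TLCP, and Slc7a5 is last in Tfh.

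Ordered by TPM within TLCP, Slc1a5 (76.9 ± 10.9) was followed by Slc3a2 (71.4 ± 19.1), Slc38a2 (55.8 ± 12.6), Slc38a1 (29.3 ± 3.41), Slc7a6 (19.6 ± 2.27), Slc7a5 (16.4 ± 4.45), Slc7a1 (14.3 ± 2.57) and Slc43a1 (6.85 ± 1.67). The ranges of neighbors overlapped except between Slc38a2 and Slc38a1, between Slc38a1 and Slc7a6 and between Slc7a1 and Slc43a1. In Tfh the order was Slc1a5 (45.1 ± 9.62), Slc3a2 (38.1 ± 5.40), Slc38a2 (33.7 ± 3.40), Slc38a1 (33.4 ± 6.00), Slc7a6 (16.0 ± 3.29), Slc43a1 (11.6 ± 2.19), Slc7a1 (11.6 ± 1.93) and Slc7a5 (9.26 ± 2.07). There the only neighbors without overlap were Slc38a1 and Slc7a6. The same 5 genes thus led in both populations in the same order. After them Slc7a5 and Slc43a1 changed places, with Slc7a1 between them in both.

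TPM levels cannot be compared directly between the groups, because on log2(TPM + 1) the median of all genes was 0.25 higher in TLCP. A ribosomal RNA-like gene took a mean of 17.3% of the assigned reads in TLCP and 24.7% in Tfh. What part that gene had in the shift of scale was not tested. The share of each transporter in the summed TPM of all 8 does not depend on that scale. Slc43a1 made up 2.37% ± 0.53 of the sum in TLCP (1.84% to 3.38%) and 5.84% ± 0.79 in Tfh (4.69% to 6.87%). Slc38a1 made up 10.3% ± 2.07 in TLCP (7.94% to 13.2%) and 16.7% ± 1.34 in Tfh (15.4% to 18.5%), and Slc3a2 24.3% ± 2.62 (22.1% to 28.1%) and 19.2% ± 1.88 (15.9% to 21.0%). For these 3 the ranges of the 2 groups did not overlap. They overlapped for the other 5, Slc7a5 with 5.60% ± 0.71 and 4.74% ± 1.22 among them. Shares of a common sum constrain one another, and they were not tested.

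**Figure D3:**
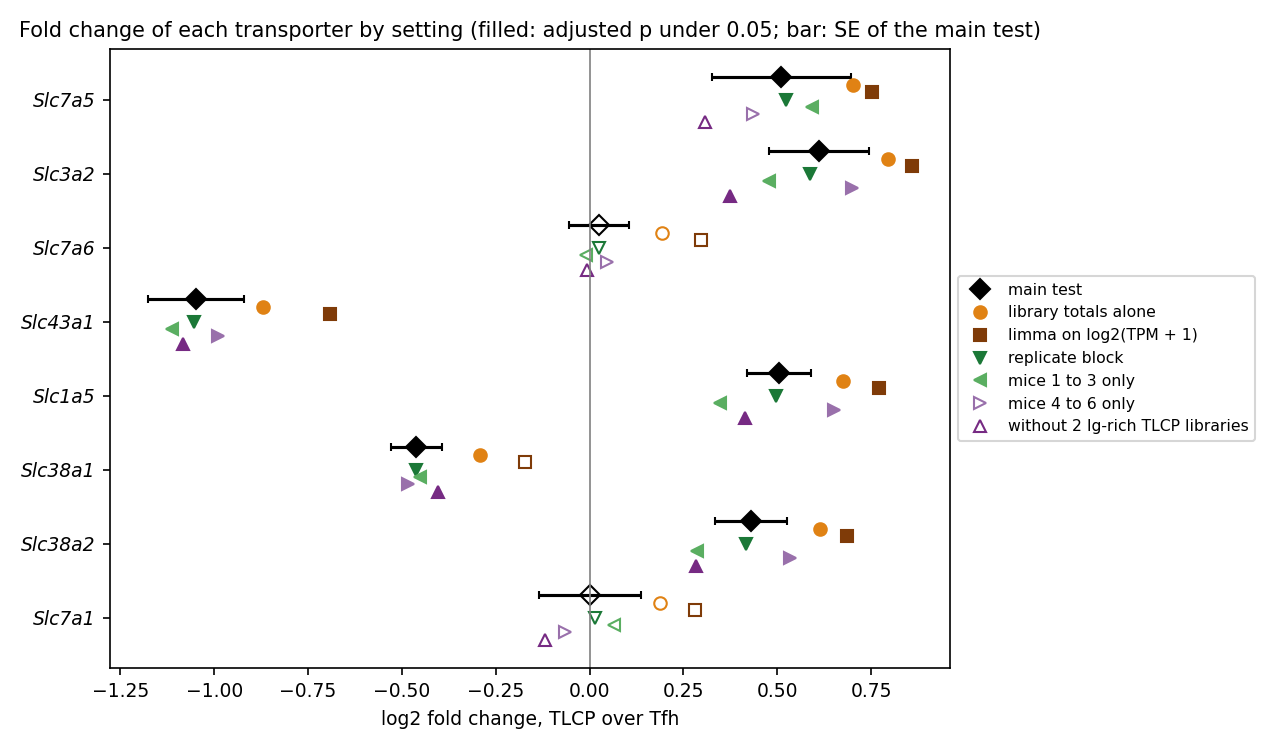
Log2 fold change, TLCP over Tfh, of each transporter under the test reported (black, bar ± SE) and under 6 other settings, filled where the adjusted p was under 0.05 and open otherwise. Slc3a2, Slc1a5, Slc38a2 and Slc43a1 pass in all 7, Slc7a5 fails without the 2 immunoglobulin-rich TLCP libraries and in mice 4 to 6, Slc38a1 fails on TPM, and Slc7a6 and Slc7a1 pass in none.

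Scaling shifted all 8 in the same direction. With library totals alone, in which the median of all genes was 0.17, Slc7a5, Slc3a2, Slc1a5 and Slc38a2 had log2 fold changes of 0.70, 0.79, 0.67 and 0.61, and Slc38a1 and Slc43a1 of -0.29 and -0.87. On log2(TPM + 1) with limma the lower genes were nearer to 0, at -0.17 for Slc38a1 (adjusted p = 0.37) and -0.69 for Slc43a1 (adjusted p = 0.0070). None of the 6 changed genes turned direction under either scale. The authors' deposited table gives log2 fold changes of 0.52 for Slc7a5 (adjusted p = 0.026) and -1.04 for Slc43a1 (adjusted p = 2.3e-12).

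The 2 TLCP libraries richest in immunoglobulin transcripts also held the extreme TLCP values of 4 of the changed transporters. Markers of B cells (12 of 14 tested markers higher in TLCP) summed to 5539 to 24628 CPM in TLCP and 1252 to 2484 CPM in Tfh, and markers of plasma cells (7 of 10 higher) to 2215 to 12027 and 257 to 1531 CPM. No marker of either list was at 0 throughout a group, and Prdm1 and Xbp1 of the plasma cell list are also expressed by activated T cells. Ighm, the heavy chain of IgM, ran from 3730 to 22786 CPM in TLCP and from 799 to 1561 CPM in Tfh, and Jchain, which joins IgM units, from 550 to 3012 and from 28.1 to 162 CPM. Most of the B cell sum was Ighm, with 22786 of 24628 CPM in TLCP library 5. Cd74, another B cell marker, was highest in TLCP library 6, at 1207 CPM, beside 647 and 630 CPM in TLCP libraries 4 and 5. TLCP libraries 5 and 4 were the richest in immunoglobulin, at 4.64% and 3.75% of reads, and the same 2 libraries held the 2 highest TLCP values of Slc3a2, Slc7a5 and Slc38a2 and the 2 lowest of Slc38a1. Below them the order was not kept. TLCP library 1, next at 1.88%, had the lowest Slc38a2 in TLCP (153 CPM), and library 6, at 1.57%, had 203 CPM. Libraries 4 and 5 are both from mice 4 to 6, so immunoglobulin level and set of mice cannot be told apart for them.

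Without those 2 libraries Slc3a2 was still higher in TLCP (log2 fold change 0.37, adjusted p = 0.0068), as were Slc1a5 (0.41, adjusted p = 0.0024) and Slc38a2 (0.28, adjusted p = 0.022), while Slc7a5 no longer passed (0.31, adjusted p = 0.25). Slc38a1 (-0.40) and Slc43a1 (-1.08) were still lower. With all libraries kept and the immunoglobulin and B lineage genes removed before scaling, the 8 values changed no call. Among markers of other cells, 2 of 5 tested myeloid markers were higher in TLCP (sum 35.4 to 127 CPM, and 17.7 to 83.8 in Tfh), as were 5 of 5 basophil markers (26.1 to 96.2 and 0.239 to 7.17 CPM). What part RNA of such cells had in the transporter values was not tested.

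Mouse number also went with the levels, in both populations. In mice 4 to 6 Slc7a5 averaged 26.9 CPM in TLCP and 19.8 in Tfh, and in mice 1 to 3 it averaged 19.4 and 12.9. Slc3a2 averaged 112 and 68.5 CPM in mice 4 to 6 and 79.6 and 57.1 in mice 1 to 3, and Slc38a2 averaged 216 and 148 against 159 and 130. For these 3 genes the 2 sets of mice did not overlap in either population. How many of all tested genes separated in this way was not counted, so it cannot be read as particular to transporters. Slc38a1 was the other way, with 182 and 252 CPM in mice 4 to 6 and 204 and 279 in mice 1 to 3, and overlapped in TLCP. No label names a batch, and the split rests on an earlier look at these libraries.

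Within each set of mice the direction of the 6 changed genes was kept. In mice 1 to 3 the log2 fold changes were 0.59 for Slc7a5, 0.48 for Slc3a2, 0.35 for Slc1a5, 0.28 for Slc38a2, -0.45 for Slc38a1 and -1.11 for Slc43a1, and all passed. In mice 4 to 6 they were 0.43, 0.70, 0.65, 0.53, -0.48 and -0.99, and all passed but Slc7a5 (adjusted p = 0.11). Whether the sets differed in these changes was not tested.

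**Figure D4:**
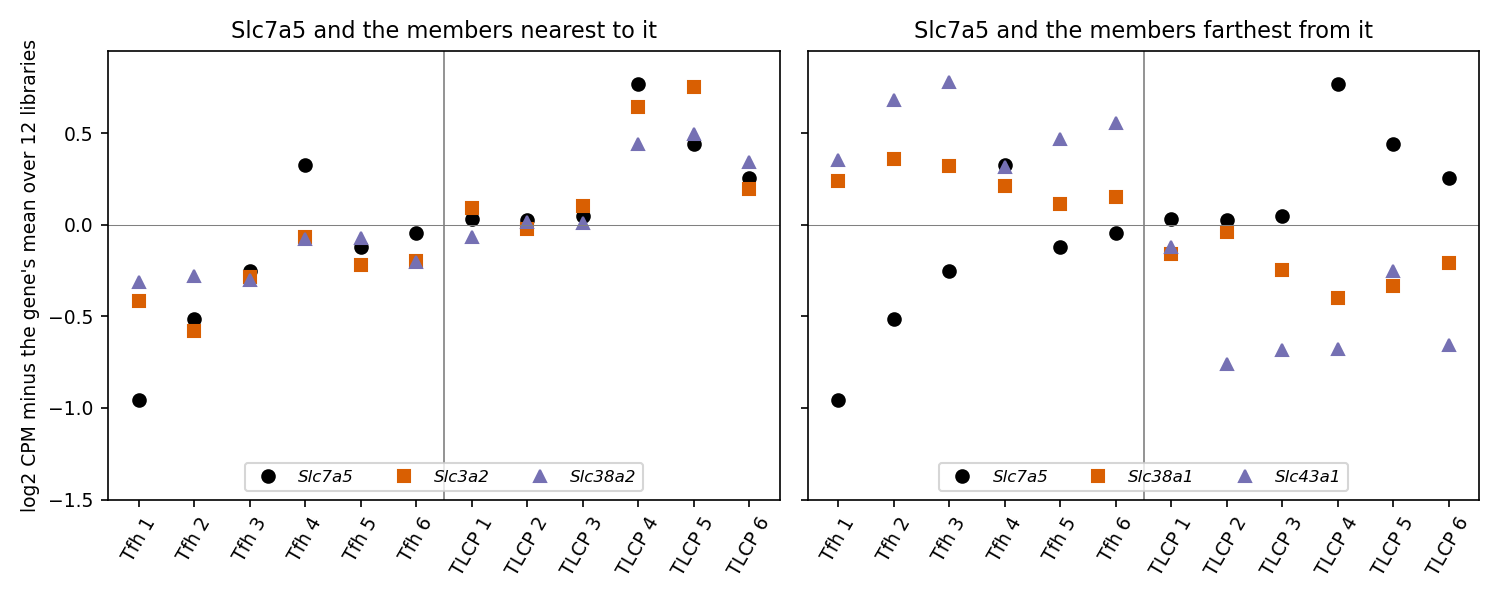
Log2 CPM of each gene minus its mean over the 12 libraries, for Slc7a5 with Slc3a2 and Slc38a2 (left) and for Slc7a5 with Slc38a1 and Slc43a1 (right), Tfh libraries before the vertical line and TLCP libraries after it. Slc3a2 and Slc38a2 follow Slc7a5, with all 3 highest in TLCP 4 and 5, and Slc38a1 and Slc43a1 run the other way.

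Likeness of pattern was measured as the root mean square difference in log2 CPM over the 12 libraries after centering each gene on its mean. Among 12014 other tested genes, the nearest to Slc7a5 were Polr1b, a subunit of RNA polymerase I, Hdac7, a histone deacetylase, and Chml, a Rab escort protein, each at 0.22. Slc3a2 stood 6th at 0.23 and Slc38a2 33rd at 0.26. The other transporters followed with Slc7a1 at place 378, Slc1a5 at 1150, Slc7a6 at 2772, Slc38a1 at 8633 and Slc43a1 at 10643. Of the 3 nearest, Hdac7 was higher in TLCP (log2 fold change 0.63, adjusted p = 0.00020), and Polr1b and Chml did not pass at 0.34 each (adjusted p = 0.13).

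With group means removed, a reading added after the values were seen, Slc7a1 was the transporter nearest to Slc7a5 (place 31), ahead of Slc3a2 (52) and Slc38a2 (193). Taken from Slc3a2 instead, Slc38a2 was the nearest transporter, at place 4 over the 12 libraries and 13 with group means removed, and Slc7a5 stood at 105 and 1067. The nearest to Slc43a1 were Dipk2a at 0.17, Abhd4, a lysophospholipase, at 0.17 and Ppt1, a lysosomal thioesterase, at 0.18. These had log2 fold changes of -1.12, -1.11 and -0.86, and Slc38a1 was the nearest transporter at place 483. Places measure resemblance of pattern over libraries that share depth and mouse sets.

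Most other amino acid transporters of the cell surface were barely present. Of 40 listed, 32 did not reach the filter, with the highest group mean among them at 0.933 CPM, and 10 of these had no read in any library. Of the 8 tested, 4 were lower in TLCP, 1 was higher and 3 did not pass, with a median log2 fold change of -0.24. The share that passed was 62.5%, beside 33.2% of all tested genes. Slc16a10, TAT1, a carrier of aromatic amino acids, was 6.36 ± 1.80 CPM in TLCP and 15.7 ± 3.21 in Tfh (log2 fold change -1.30, adjusted p = 3.2e-05), and the groups did not overlap. Slc43a2, LAT4, the closest relative of Slc43a1, was 48.3 ± 5.14 and 61.4 ± 6.20 CPM (log2 fold change -0.35, adjusted p = 0.0045) with overlap. With library totals alone the value for Slc43a2 was -0.16 and did not pass (adjusted p = 0.23).

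The remaining 3 of those 5 are named because the count is small, chosen after their values were seen. Slc1a4, ASCT1, was 0.506 ± 0.43 CPM in TLCP and 4.71 ± 3.82 in Tfh (log2 fold change -3.12), and Slc7a10, a light chain of CD98 for small neutral amino acids, was 0.877 ± 0.53 and 4.14 ± 2.03 CPM (-2.22). Slc7a7, y+LAT1, another light chain of CD98, was 2.97 ± 1.03 CPM in TLCP and 0.916 ± 0.54 in Tfh (1.66). All 3 lay at a few CPM in the higher group and at 0.506 to 0.916 CPM on average in the other, and did not overlap between groups. They passed the filter on low counts through the higher group, and their fold changes rest on few reads in the lower.

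**Figure D5:**
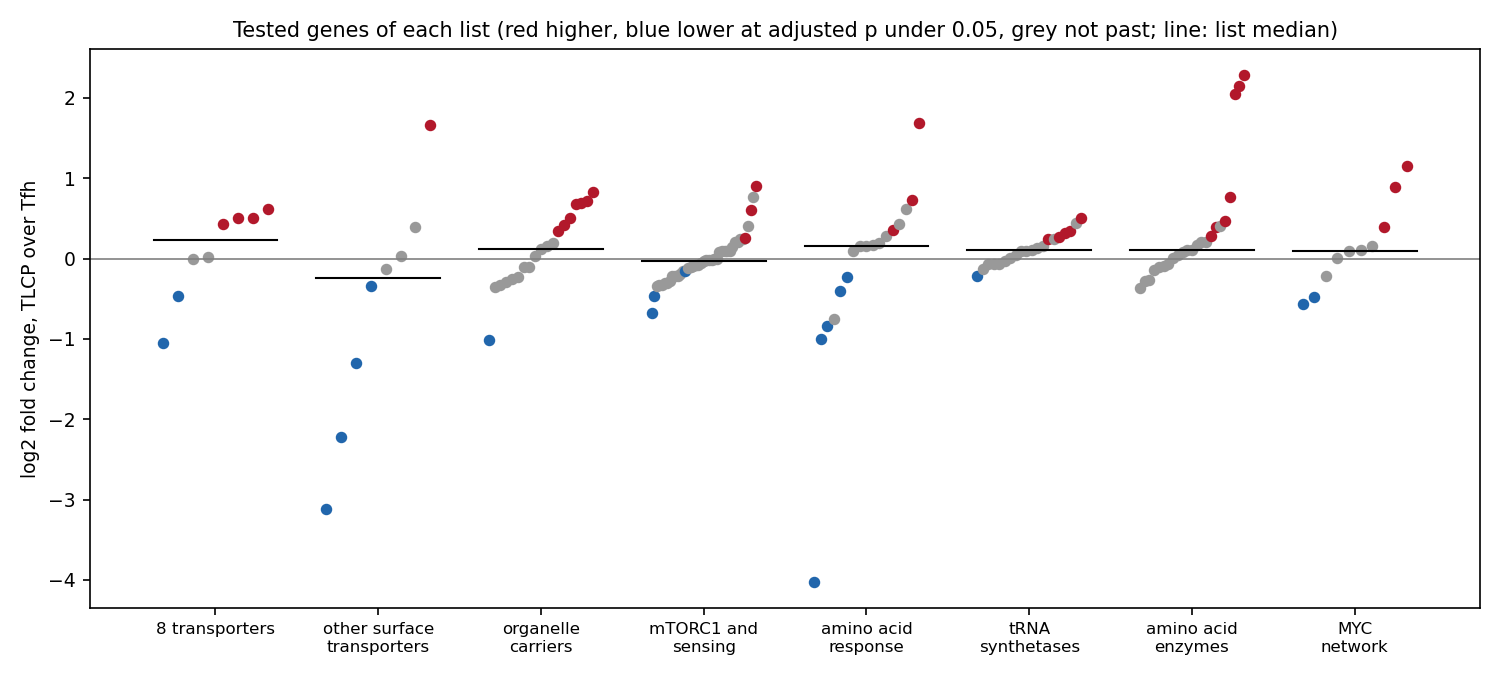
Log2 fold change, TLCP over Tfh, of every tested gene in 8 lists, red where higher and blue where lower at an adjusted p under 0.05, grey where not past, with a line at the list's median. The transporters spread to both sides of 0, 7 carriers of lysosomes and mitochondria are red with Slc36a4 alone blue, and most mTORC1 and tRNA synthetase genes are grey and near 0.

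Of 22 carriers of amino acids in lysosomes and mitochondria, 19 were tested, and 7 were higher, 1 lower and 11 not past the test (median 0.12). The share that passed was 42.1%, beside 33.2% of all tested genes. Slc36a4, PAT4, a carrier of neutral amino acids such as proline and tryptophan, was 23.8 ± 5.40 CPM in TLCP and 48.2 ± 3.06 in Tfh, a log2 fold change of -1.02 (adjusted p = 2.2e-06) without overlap. Sfxn3, a mitochondrial serine carrier, was 40.5 ± 5.01 and 24.6 ± 3.49 CPM (0.72, adjusted p = 4.3e-05), and Slc25a22, a mitochondrial glutamate carrier, was 17.4 ± 1.29 and 10.9 ± 1.45 CPM (0.68, adjusted p = 0.00034). Both were without overlap. Slc15a4, a lysosomal histidine and peptide carrier (0.83), Slc25a38, a mitochondrial glycine carrier (0.50), and Slc36a1, the lysosomal PAT1 (0.34), passed with overlap. Slc36a1 lost its call without TLCP 4 or 5 or Tfh 5 or 6, and in mice 1 to 3 alone it stood at 0.06 (adjusted p = 0.80). In mice 4 to 6 alone Slc15a4 and Slc25a38 did not pass (adjusted p = 0.12 and 0.21). The count of 7 higher genes was 3 without the 2 immunoglobulin-rich libraries, where Slc36a1 and Slc25a38 did not pass.

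Few genes of the sensing machinery passed the test. Of 41 tested genes of mTORC1 and its amino acid sensors, 3 were higher, 3 were lower and 35 did not pass (median -0.04), a share of 14.6% beside the 33.2% of all tested genes. Sesn1, a sestrin that restrains mTORC1, was 45.9 ± 4.70 CPM in TLCP and 24.5 ± 5.39 in Tfh (0.91, adjusted p = 9.1e-06) without overlap. Castor2, related to the arginine sensor, fell by 0.67 on the log2 scale (adjusted p = 0.00079), and Mlst8, a subunit of the kinase complex, was higher by 0.60 (adjusted p = 0.0097). The other 3, named for the small count, were Fnip1 (0.26), Wdr59 (-0.47) and Eif4ebp2 (-0.15). With library totals alone 7 of the list were higher and 1 lower.

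Genes of the amino acid response, the program that ATF4 drives when amino acids are scarce, were split. Of 17 tested, 3 were higher, 5 lower and 9 not past (median 0.16), so 47.1% passed beside 33.2% of all tested genes. Psat1, of serine synthesis, was 49.1 ± 4.34 CPM in TLCP and 87.8 ± 8.80 in Tfh (-0.84, adjusted p = 1.8e-07), and Mthfd2, of mitochondrial folate metabolism, was 51.8 ± 4.32 and 68.8 ± 3.92 CPM (-0.41, adjusted p = 0.00024). Stc2, a secreted glycoprotein, was 0.517 ± 0.37 and 8.63 ± 4.40 CPM (-4.03, adjusted p = 2.0e-06). It passed the filter on low counts through Tfh, and its fold change rests on few reads in TLCP. None of these 3 overlapped between groups. Also lower were Ddit4 (-1.01) and Cebpg (-0.23), and the higher genes were Asns (0.73), Aldh18a1 (0.35) and Gpt2 (1.69), all 5 named for the small counts. Gpt2 averaged 0.801 CPM in Tfh, so its fold change rests on few reads there. None of the 3 higher genes passed without TLCP 5, and 6 were higher with the mouse number as a block and with library totals alone.

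Of 20 aminoacyl-tRNA synthetases, the enzymes that load amino acids onto tRNA, 5 were higher, 1 was lower and 14 did not pass (median 0.10). The share that passed, 30.0%, was near the 33.2% of all tested genes. Iars was 72.5 ± 2.85 CPM in TLCP and 57.3 ± 4.86 in Tfh (0.34, adjusted p = 0.00092) without overlap, and Cars was 25.1 ± 5.96 and 17.7 ± 1.77 CPM (0.50, adjusted p = 0.0064). Vars (0.32), Tars (0.24) and Gars (0.26) were the other 3. Dars was lower (-0.22, adjusted p = 0.0070) but stood at 0.07 on log2(TPM + 1). The count of higher genes was 11 with library totals alone, 8 with the mouse number as a block and 2 without the immunoglobulin-rich libraries.

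Enzymes that use or make amino acids gave 7 higher and 0 lower of 23 tested (median 0.11, 16 not past). Of the list 30.4% passed, beside 33.2% of all tested genes, 16.8% higher and 16.4% lower. Il4i1, a secreted oxidase of aromatic amino acids, was 12.4 ± 4.94 CPM in TLCP and 2.52 ± 0.74 in Tfh (2.29, adjusted p = 1.5e-06) without overlap. Kmo, of tryptophan breakdown, was 22.3 ± 10.3 and 5.37 ± 2.31 CPM (2.04, adjusted p = 0.00070), and Glul, glutamine synthetase, was 47.2 ± 5.83 and 34.1 ± 5.71 CPM (0.47, adjusted p = 0.0028). In mice 4 to 6 alone 2 were higher and 1 lower. For the count of 0 lower genes by edgeR, DESeq2 and limma voom also gave 0, and 1 of the lower genes, Bckdha, had an unadjusted p under 0.05. Without TLCP 2, Tfh 1 or Tfh 4 the count was 1.

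Within the MYC network, 3 of 10 tested genes were higher, 2 lower and 5 not past the test (median 0.10). The share that passed was above the 33.2% of all tested genes. Myc was 42.5 ± 5.46 CPM in TLCP and 23.1 ± 4.37 in Tfh (0.89, adjusted p = 1.3e-05), and no library of one group reached the other. Max, the partner through which MYC binds DNA, was 91.8 ± 6.05 and 136 ± 8.94 CPM (-0.57, adjusted p = 1.9e-06), and Mxd4, a repressor that competes for MAX, was 88.4 ± 9.44 and 123 ± 7.67 CPM (-0.48, adjusted p = 5.0e-05). Mlxip (0.39) and Mxd1 (1.16) were also higher. On log2(TPM + 1) neither Max (-0.28, adjusted p = 0.11) nor Mxd4 (-0.19, adjusted p = 0.25) passed.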

How the data were processed

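Poly(A) RNA of 12 sorted libraries was sequenced, 6 of each population, with KAPA RNA HyperPrep libraries per the labels' protocols. The submitters' processing notes name STAR 2.7.1a, bcl2fastq 2.20, DESeq2 1.30.1 and the GRCm38 build, with no annotation release given in the sources used here. Raw counts in STAR's layout were deposited, of which the stranded column was used. Reads on the opposite strand were 2.83% to 4.19%. Reads in classes that name no gene were 44.9% to 56.4% of the total and stayed out of library sizes and tests. The authors also deposited TPM values and a result table with, per the file headers, log2 fold changes, a test score, p-values and a size factor scaled signal per library. Whole reads were recovered from 100% of the values of that deposited signal (tolerance 0.01 reads), and a refit on them called 3983 genes, as did the counts.

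The tool was edgeR 4.0.16 in R 4.3.3, with filterByExpr, TMM scaling and the robust quasi-likelihood test (2-sided), with Benjamini-Hochberg adjustment over 12015 genes and a threshold of 0.05. The fit was also run on simulated data with changes of at least 2-fold. Among the called transporters only Slc43a1 changed that much, so the simulation does not bear on the smaller changes. Log2 fold changes are TLCP over Tfh. Standard errors are the size of the log2 fold change over the root of F. Unless TPM is named, a level is CPM after TMM. For likeness, log2 CPM with a prior count of 2 was used. Gene positions are from GENCODE M21 on GRCm38, where 54349 of 55401 genes had the span given in the files. Promoter windows are from RefSeq. DESeq2 1.42.0 and limma 3.58.1 served as alternatives, limma on log2(TPM + 1) for genes with at least 1 TPM in 6 libraries.

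The libraries are numbered 1 to 6 in both groups and the series describes 6 mice. Deviations from group means correlated at 0.127 to 0.318 between libraries of the same number, 9 of 12 libraries were nearest to their own number, and pairs of other numbers reached 0.209. The numbers were therefore taken to pair the libraries, and the test with the number as a block was an alternative. The most alike libraries of a group had a chi-square of 6.60 per degree of freedom, beyond sampling noise. Floors cover counting error only, while SDs and SEs also include variation between libraries.

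The 8 transporters, the other gene lists, the split of the mice and the alternatives were chosen with earlier results of these data known. Beside the 8, genes were named by rule: in the lists of other surface and organelle carriers, up to 6 genes with the smallest p that passed and reached 10 CPM in either group; in the lists of mTORC1, amino acid response, tRNA synthetase, enzyme and MYC network genes, the 3 with the smallest p; the 2 most abundant B cell and plasma cell markers; and the 3 nearest genes in pattern to Slc7a5 and to the most changed transporter. By that rule Cd74 was 645 ± 301 CPM in TLCP and 147 ± 83.9 in Tfh, and Igkc 4279 ± 2834 and 411 ± 270. The 28 alternatives were other scalings, tests, filters and strand settings, the block, removal of the ribosomal RNA-like gene or of B lineage genes, subsets of libraries, each library left out in turn and, chosen after seeing the data, the recovered reads.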

Additional observations from a re-analysis of the deposited data

Results flagged for a closer look

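Slc7a1, which encodes the arginine and lysine importer CAT1, stood at 92.7 CPM in Tfh library 4, far from the other 5 Tfh libraries. The next highest was 63.7 CPM, and the gap between them was 0.634 of the whole range of the group, above the critical value of 0.625 for 6 samples. The 8 transporters gave 16 groups of 6 libraries that were examined in this way, and chance alone marks about 1 group in 20. Tfh library 4 was also the shallowest, with 6939770 assigned reads, and had the highest Tfh values of Slc7a5 (23.7 CPM) and Slc3a2 (73.1 CPM). Without it the log2 fold change of Slc7a1 was 0.14 and did not pass. The cause was not tested.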

How the results depend on the processing

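All 28 alternatives kept the direction and the call of Slc3a2 (log2 fold change 0.37 to 0.86), Slc1a5 (0.35 to 0.77), Slc38a2 (0.28 to 0.69) and Slc43a1 (-1.15 to -0.69), and left Slc7a1 (-0.12 to 0.28) and Slc7a6 (-0.01 to 0.30) without a call. Slc7a5 lost its call without the 2 TLCP libraries richest in immunoglobulin (0.31), in mice 4 to 6 alone (0.43) and without 7 of the 12 libraries, with leave-one-out values from 0.38 to 0.64. Slc38a1 lost its call on log2(TPM + 1) (-0.17). Fewer libraries entered the first 3 of these, and in mice 1 to 3 alone Slc7a5 passed the same edgeR test (0.59, adjusted p = 0.015). The cause of the lost calls was not tested. Of the other surface transporters 2 were higher with no filter on low counts and 0 with at least 10 CPM in 6 libraries, where 2 were lower, since other numbers of genes were then tested. Among 23 other named genes 12 lost a call under some alternative, and Dars reversed to 0.070 on log2(TPM + 1).

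Scaling sets the balance of calls. The test called 2014 genes higher and 1969 lower, library totals alone 3207 and 893, and log2(TPM + 1) 3077 and 470. With the replicate block, 4453 genes were called in place of 3983 and Slc7a5 was at 0.52, and the block changed no call of the 8 transporters. The surface transporters that were not tested had group means of at most 0.933 CPM, where depth limits what can be seen.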
